A study of Mus musculus with 17 samples.

Results

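The genes described here are the 5 members of a monocyte-recruiting chemokine axis in the mouse: the ligands Ccl2, Ccl7, Ccl8 and Ccl12 and the receptor Ccr2. They were listed by name and not ranked by any measured value, though earlier results of these data were known. All 5 were present among the 28208 genes common to 5 single-cell matrices and among the 48397 genes of 12 bulk count tables. Macrophages held most Ccl8 and Ccl12. Ccl2 and Ccl7 came mainly from macrophages and monocytes in 3 of 5 single-cell libraries and mostly from macrophages in the other 2. Up to 22.1% of Ccl2 UMIs lay in cells that took no class. Ccr2 was higher in monocytes than in macrophages in all but the PDL1 floxed/WT-CD4Cre library, where they were nearly level.

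CCR2 is a G protein-coupled receptor on inflammatory monocytes, which use it to leave the bone marrow and to enter inflamed tissue and tumours. CCL2 and CCL7 are its main ligands in the mouse, and CCL12 is a further mouse ligand that is close to CCL2 in sequence. Mouse CCL8 is best known as a ligand of CCR8, and blockade of the CCL2 to CCR2 route has been studied in pancreatic cancer as a way to keep monocytes out of the tumour.

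The 5 single-cell libraries hold cells from mouse pancreatic tumours taken 3 weeks after orthotopic implantation and left untreated, with 1 library for each genotype. The genotypes are CD4Cre, PDL1 floxed/WT-CD4Cre (written flWT_CD4Cre), PDL1 floxed/floxed-CD4Cre (flfl_CD4Cre), PDL1 floxed/floxed without Cre (flfl) and WT, and values given as lists of 5 follow this order. PD-L1 is the protein of Cd274, and the Cre is named for CD4, whose promoter is active in T cells, so that the floxed gene is aimed at in T cells and not in the myeloid cells that hold most of this axis. The 12 bulk libraries, 3 for each of the groups Control, Ctrl_Fc, PD1_Fc and PDL1_Fc, are labelled as WT splenic T cells stimulated with antibodies to CD3 and CD28. Control had the antibodies only. Ctrl_Fc and PD1_Fc had control Fc or PD-1 Fc added at 2.5 ug/ml, and for the libraries titled PDL1_Fc the labels give no dose of a PD-L1 Fc.

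Several labels and files conflict. The treatment field gives PDL1 Fc for the library PD1_Fc_3 and PD1 Fc for all 3 libraries titled PDL1_Fc, and the titles were used. For flWT_CD4Cre and WT the deposited file is named for another genotype than the label gives, and groups follow the label. CD4Cre, flWT_CD4Cre and flfl_CD4Cre have matrices of 31053 features, while flfl and WT have 28692, so genotypes are read first within the 3 matrices of 1 format. These 3 libraries share cell barcodes: 1710 between CD4Cre and flWT_CD4Cre, 1414 between CD4Cre and flfl_CD4Cre and 1856 between flWT_CD4Cre and flfl_CD4Cre, against 12 between flfl and WT. Where the depth of a shared barcode was at least 5 times apart, the shallow copy held a median of 1.88%, 2.11% and 2.60% of the UMIs of the deep copy, and 1195, 1497 and 821 such copies were removed from CD4Cre, flWT_CD4Cre and flfl_CD4Cre. Shared barcodes of similar depth, 629, 546 and 237 for the same 3 pairs, were kept.

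After filtering, 4415, 3055, 3557, 2862 and 2879 cells were kept, with medians of 6154, 12953, 13668, 10859.5 and 11210 UMIs. The labels call these cells tumour-infiltrating T cells as well as sorted leukocytes. Cells with T cell markers made up 2.74%, 2.45%, 1.91%, 19.95% and 13.2%, so the name T cells does not describe most of them. A panel of 6 macrophage markers, among them C1qa, C1qb, C1qc, Ms4a7 and Adgre1, defined 529, 641, 1147, 954 and 1374 cells, and monocyte markers (Ly6c2, Plac8, Chil3, F13a1, Vcan and Ms4a4c) in cells of no other lineage defined 517, 496, 667, 346 and 183. The CD4Cre library was 51.4% B cells, and 73, 492, 366, 78 and 178 cells carried epithelial keratins in spite of the CD45 sort. No member is among the markers. Levels are UMIs of a gene per 1000000 UMIs of its class (CPM), with 95% Poisson intervals that cover counting error only, and with 1 library per genotype no test between genotypes is possible.

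The targeted gene was checked first. Cd274 in cells with T cell markers stood at 80.9, 50.1, 61.9, 10.1 and 7.01 CPM. The floxed/floxed-CD4Cre library, with 36 UMIs and an interval of 43.3 to 85.7 CPM, was not below flWT_CD4Cre, flfl or WT. These are 3′ tags, and where they lie outside the deleted part they check nothing about the deletion.

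The 4 ligand genes lie in 1 cluster on the plus strand of chromosome 11 in GRCm38, from 82035571 to 82116799, a span of 81229 bases. In GENCODE M21, Ccl2 is at 82035571-82037453, Ccl7 at 82045712-82047525, Ccl12 at 82101845-82103400 and Ccl8 at 82115185-82116799, each with 3 exons. Ccr2 is on chromosome 9, at 124101950-124113557. Ccl8 and Ccl12 are neighbours in the cluster and were the pair most restricted to macrophages, so the 250 bases before their start are shown from RefSeq on GRCm38.p6, plus strand, 5′ to 3′, at chr11:82114935-82115184 for Ccl8 and chr11:82101595-82101844 for Ccl12. Capitals mark the letters TATAAA.
Ccl8: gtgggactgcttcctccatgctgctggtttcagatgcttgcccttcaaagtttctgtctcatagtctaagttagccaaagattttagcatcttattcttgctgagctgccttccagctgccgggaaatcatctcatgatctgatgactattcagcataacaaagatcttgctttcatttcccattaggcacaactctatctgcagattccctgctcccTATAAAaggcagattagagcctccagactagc
Ccl12: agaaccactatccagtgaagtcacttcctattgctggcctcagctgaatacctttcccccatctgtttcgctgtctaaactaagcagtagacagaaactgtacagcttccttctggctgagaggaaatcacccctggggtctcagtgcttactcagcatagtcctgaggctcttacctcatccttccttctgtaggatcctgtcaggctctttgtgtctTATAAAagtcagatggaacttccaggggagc
The match begins 32 bases before the start in Ccl8 and 31 bases before it in Ccl12, and 12.4% of 32851 promoter windows of the same length hold TATAAA on either strand. The letters TGACTCA and TTCNNNGAA, the ISRE motif (GAAA on each side of any 2 bases) and the NF-kB motif had no match on either strand of either window, against 4.46%, 7.02%, 2.98% and 7.25% of all windows. In a global alignment, 145 of 266 columns were identical (54.5%). The window of Ccr2, aligned in the same way, was 46% identical to that of Ccl8 and 46.1% to that of Ccl12. Windows were at hand for only 3 members, so Ccl2 and Ccl7 were not compared. A match is a description of letters and not of a bound site.

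Ccl2 encodes the best known CCR2 ligand. In macrophages it stood at 539, 913, 252, 288 and 253 CPM, and in monocytes at 1204, 1541, 366, 139 and 115 CPM. Monocytes were above macrophages in the 3 libraries of the first format and below them in flfl and WT. Macrophages gave 31.2%, 32.0%, 41.3%, 69.2% and 73.2% of all Ccl2 UMIs, and monocytes gave 50.4%, 39.8%, 27.7%, 11.2% and 4.87%. The larger share thus came from monocytes in CD4Cre and flWT_CD4Cre and from macrophages in the other 3 libraries. Cells that took no class gave 11.7%, 17.8%, 22.1%, 4.71% and 6.81%, and epithelial cells of flWT_CD4Cre gave 8.87%. B cells of flfl held 108 CPM of Ccl2, near its monocyte level, but once each cell was thinned to 3000 UMIs 3.62% of these B cells and 17.6% of the monocytes had a Ccl2 UMI. In epithelial cells Ccl2 stood at 44.2, 128, 46.6, 17.7 and 20.9 CPM, and the few fibroblasts, 10 in flWT_CD4Cre and 19 in flfl_CD4Cre, stood at 625 and 328 CPM.

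Ccl7, a ligand of CCR2 and of CCR1 and CCR3, followed Ccl2 only in part. It stood at 338, 517, 159, 262 and 257 CPM in macrophages and at 448, 545, 108, 17.3 and 26.2 CPM in monocytes. Monocytes were above macrophages in CD4Cre and flWT_CD4Cre and below them in flfl and WT, as for Ccl2. In flfl_CD4Cre they were below macrophages, unlike for Ccl2. Macrophages gave the larger share of Ccl7 UMIs in each library. It was 44.6% against 42.8% from monocytes in CD4Cre and 47.8% against 37.2% in flWT_CD4Cre. B cells served as a class that should lack these genes, with each cell thinned to 3000 UMIs so that depths match. In flfl, 2.89% of thinned monocytes and 2.90% of thinned B cells had a Ccl7 UMI, so the monocyte level there is read as background. In WT the shares were 5.46% and 2.45%.

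Ccl8 was nearly a macrophage gene. It stood at 550, 1061, 485, 1550 and 882 CPM in macrophages, and at 19.7, 30.2, 18.8, 28.7 and 23.1 CPM in monocytes. Macrophages gave 88.7%, 90.9%, 93.8%, 88.9% and 89.2% of all Ccl8 UMIs. In monocytes of flfl_CD4Cre, flfl and WT, 3.30%, 8.38% and 7.65% of thinned cells had a Ccl8 UMI, no more than the 3.39%, 12.3% and 8.82% of B cells, so those monocyte values are read as background. The macrophage level was more than 2-fold above the monocyte level in 5 of 5 libraries, a fold that 3.79%, 5.03%, 4.5%, 8.05% and 9.0% of tested genes passed in that direction.

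Ccl12, a mouse ligand of CCR2, lay between Ccl8 and Ccl7. Its macrophage levels were 354, 1090, 236, 499 and 542 CPM, and its monocyte levels 132, 165, 42.8, 16.2 and 17.6 CPM. It passed 2-fold toward macrophages in 5 of 5 libraries, and macrophages gave 71.5%, 87.0%, 88.8%, 90.1% and 90.5% of its UMIs. In flfl and WT 3.76% and 3.83% of thinned monocytes had a Ccl12 UMI, against 2.90% and 3.43% of B cells.

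Ccr2, the receptor, ran the other way. Monocytes stood at 502, 386, 1065, 419 and 382 CPM and macrophages at 256, 374, 449, 153 and 84.7 CPM. Monocytes were thus higher in CD4Cre, flfl_CD4Cre, flfl and WT, and the 2 classes were nearly level in flWT_CD4Cre. Of thinned monocytes 42.7%, 41.04%, 64.9%, 57.8% and 46.4% had a Ccr2 UMI, against 1.70%, 3.42%, 2.26%, 2.17% and 1.96% of B cells. T cells divided by matrix format, with 28.1%, 31.7% and 46.7% of thinned cells in the first 3 libraries and 5.25% and 5.26% in flfl and WT. The T cell classes of the first 3 libraries were small, with 114, 60 and 60 thinned cells.

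**Figure D1:**
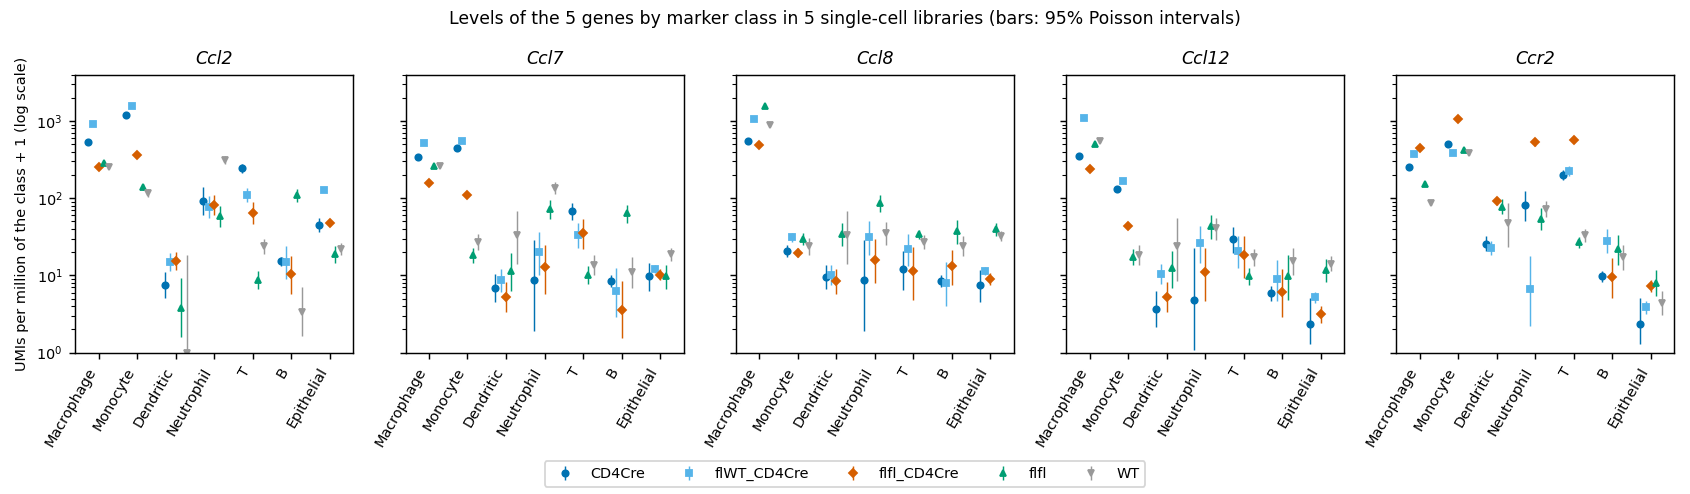
Level of each gene (CPM plus 1, log scale) by marker class in the 5 single-cell libraries, with 95% Poisson intervals. Ccl8 stands at 485 to 1550 CPM in macrophages and at 18.8 to 30.2 CPM in monocytes. Ccr2 is higher in monocytes in all libraries but flWT_CD4Cre, where the classes are nearly level.

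The macrophage class can be ordered by the summed UMIs of its own 6 markers. Monocyte and macrophage cells were binned together by these markers per 10000 UMIs, with bins of under 20 cells left out of the comparison. In flfl_CD4Cre, Ccr2 stood at 1617 CPM in cells with 5 to 10 marker UMIs, 616 CPM with 50 to 100 and 341 CPM with 200 to 400. In WT it fell from 562 CPM at 10 to 20 marker UMIs to 50.2 CPM at 200 to 400 and 14.8 CPM above 400. The lowest bin was not the Ccr2 maximum in any library, and the highest filled bin was the minimum in 4 libraries, the exception being flWT_CD4Cre, with 258 CPM in its lowest bin and 270 CPM in its highest.

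Ccl8 did the reverse. It went from 11.7 CPM in the lowest bin to 2089 CPM at 200 to 400 marker UMIs in CD4Cre, from 12.4 to 2837 CPM in flWT_CD4Cre, from 6.7 to 2197 CPM in flfl_CD4Cre, from 23.7 to 2057 CPM in flfl and from 21.2 to 1045 CPM in WT. Ccl12 went the same way, from 14.3 to 580 CPM in CD4Cre and from 5.7 to 644 CPM in flfl_CD4Cre. In the first 3 libraries Ccl2 had its maximum lower on the scale than Ccl8, at 2374 CPM with 5 to 10 marker UMIs in CD4Cre, at 2823 CPM with 10 to 20 in flWT_CD4Cre and at 531 CPM with 5 to 10 in flfl_CD4Cre. The Ccl7 maximum was spread over the scale, at 895 CPM with 5 to 10 in CD4Cre, 1396 CPM with 10 to 20 in flWT_CD4Cre, 369 CPM with 200 to 400 in flfl_CD4Cre, 296 CPM with 100 to 200 in flfl and 697 CPM with 50 to 100 in WT. In flfl the Ccl2 maximum was 555 CPM, with 10 to 20 marker UMIs, and in WT it was 863 CPM, with 50 to 100.

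**Figure D2:**
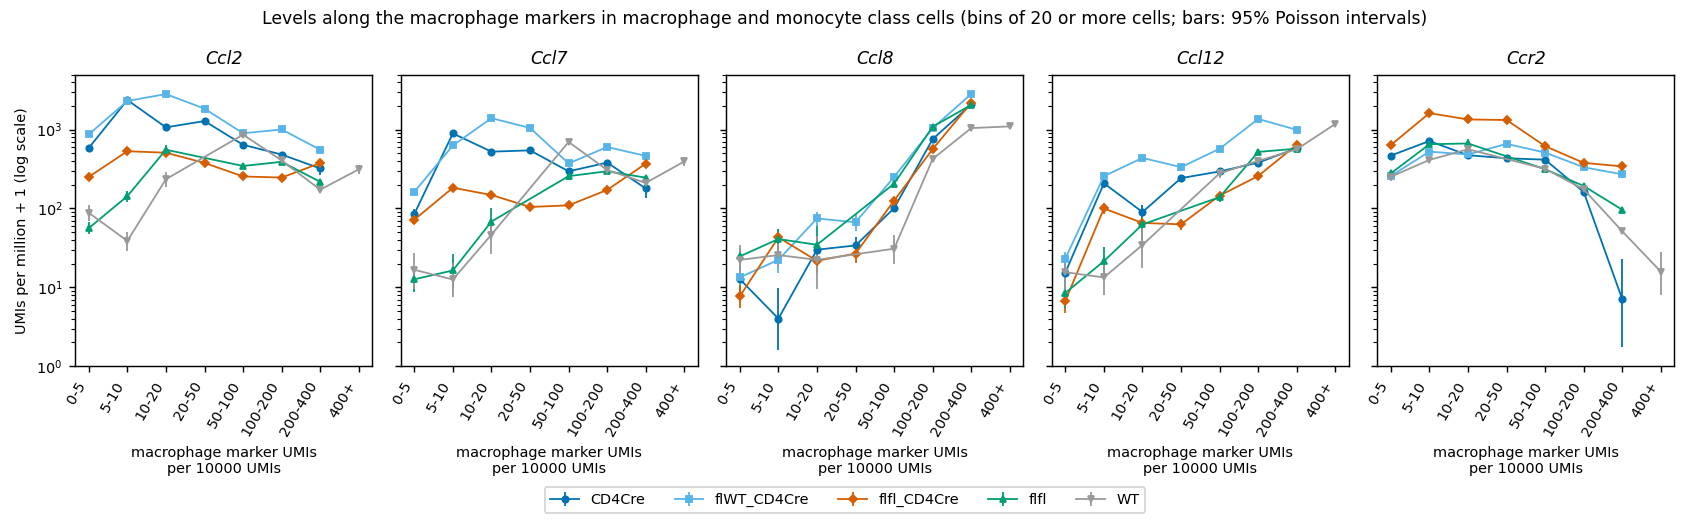
Level of each gene (CPM plus 1, log scale) in macrophage and monocyte cells binned by macrophage marker UMIs per 10000 UMIs, for bins of 20 or more cells, with 95% Poisson intervals. Ccl8 climbs to 1045 to 2837 CPM at 200 to 400 marker UMIs in all 5 libraries, where Ccr2 is lower than at 10 to 20 marker UMIs in each of them.

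Within the macrophage class the members were also set against sub-panels, taken as at least 3 UMIs per 10000. Macrophages with the resident genes (Lyve1, Folr2, Cd163, Marco and Timd4) numbered 39, 98, 354, 44 and 46. Their Ccl8 stood at 1511, 3080, 775, 5293 and 2109 CPM, against 467, 677, 303, 1384 and 826 CPM in the rest. The fold was above 2 in 5 of 5 libraries, where 4.17%, 7.89%, 5.33%, 7.43% and 7.9% of tested genes passed in that direction. Ccl12 stood at 186, 230, 129, 653 and 544 CPM in resident-panel cells against 369, 1254, 303, 492 and 542 CPM in the rest, so it was lower in the first 3 libraries, higher in flfl and level in WT. Ccl2 stood at 415, 396, 235, 575 and 597 CPM against 550, 1012, 263, 275 and 238 CPM, lower in the first 3 libraries and higher past 2-fold in flfl and WT. Ccl7 was likewise higher past 2-fold in flfl (746 and 240 CPM) and WT (539 and 244 CPM).

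Macrophages with the inflammatory genes (Nos2, Il1b and Arg1) were compared with the rest in the same way. Ccl2 stood at 627, 1079, 268, 314 and 326 CPM in them and at 97.6, 378, 189, 156 and 121 CPM in the rest, higher in 5 of 5 libraries. Ccl8 was lower in 5 of 5, at 473, 761, 367, 1243 and 624 CPM against 941, 2033, 982, 3108 and 1345 CPM. The Ccl2 difference passed 2-fold in all but flfl_CD4Cre, where 3.45%, 6.26%, 2.89%, 4.64% and 3.07% of tested genes passed in that direction. Ccr2 was lower in the inflammatory-panel cells of the first 3 libraries, at 214, 179 and 286 CPM against 468, 1007 and 1134 CPM, and was close to level in flfl, at 153 and 154 CPM.

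Single cells paired Ccl2 with Ccl7. Among macrophages thinned to 3000 UMIs, 55.1%, 58.2%, 44.3%, 41.5% and 49.8% of cells with a Ccl2 UMI also had a Ccl7 UMI, against 10.4%, 14.4%, 10.98%, 9.18% and 10.4% of cells without Ccl2. Ccl12 was likewise more frequent with Ccl2, in 47.2%, 65.2%, 39.4%, 54.9% and 60% of cells against 22.5%, 29.5%, 18.4%, 30.4% and 32.1%. Ccl8 showed no such split in CD4Cre, flfl and WT, with 22.7%, 47.97% and 41.5% of Ccl2 cells and 26.3%, 46.2% and 44.8% of the others. The share with a Ccr2 UMI was lower among cells with a Ccl8 UMI than among the rest in 5 of 5 libraries, at 16.3%, 21.2%, 23.7%, 15.1% and 11.1% against 31.7%, 37.2%, 43.9%, 30.3% and 14.8%, and the 95% binomial intervals overlapped in WT. A missing UMI at this depth does not show that a cell lacks the RNA.

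**Figure D3:**
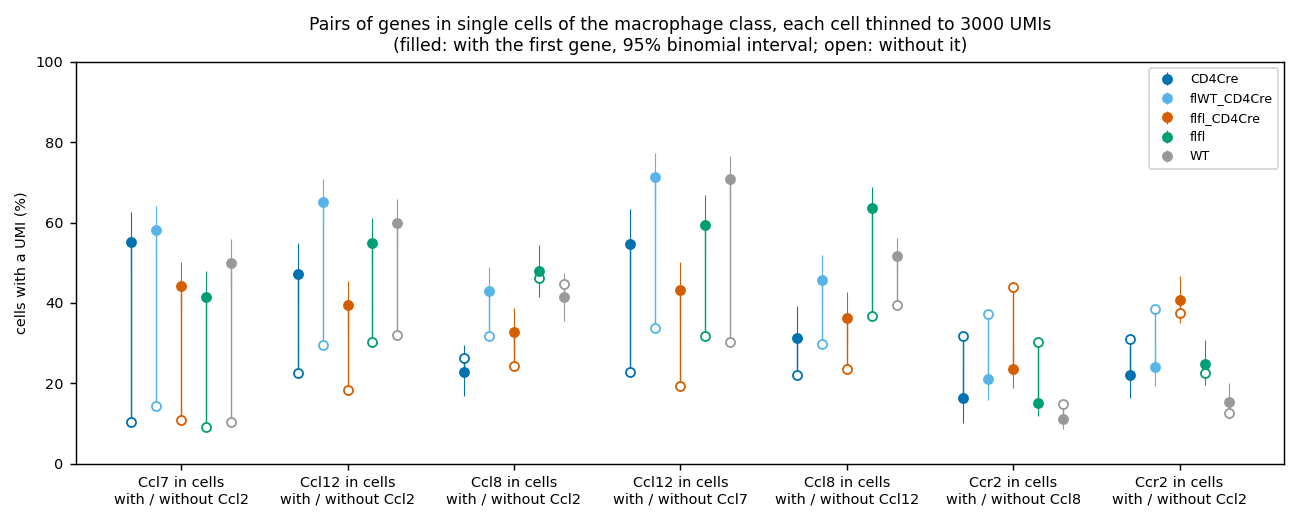
Share of macrophages (percent) with a UMI of one gene among cells with (filled, 95% binomial interval) and without (open) a UMI of another, each cell thinned to 3000 UMIs, in the 5 libraries. Ccl7 is found in 41.5% to 58.2% of cells with Ccl2 and in 9.18% to 14.4% of cells without it.

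Ligand UMIs were concentrated in few cells. The 10% of macrophages with most UMIs held 72.5%, 69.7%, 68.5%, 74.0% and 82.7% of Ccl2 and 85.6%, 82.2%, 81.9%, 74.0% and 72.9% of Ccl8. In the same class the top 10% held 61.7%, 64.5%, 49.3%, 58.0% and 78.2% of Ccr2, less than of Ccl2 in each library but more than of Ccl8 in WT. Among monocytes the top 10% held 46.3%, 52.1%, 34.0%, 33.8% and 41.6% of Ccr2. Their share of Ccl2 was larger, at 74.8%, 63.2%, 77.6%, 82.2% and 90.2%.

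Across 33 sums of 1 class in 1 library, from 7 classes and 6496 genes, the gene most like Ccl2 in log2 level was Ccl7 (Pearson r 0.879), then Sgk1, Lrp12, Hmox1 and Tgfbi. Ccl7 was most like Ccl12 (0.904) and C3ar1. Ccl8 was most like Mmp2 (0.944), Lilra5 and Igf1, and Ccl12 most like Tmem37 (0.924) and Trem2. Ccr2 was most like Ms4a6c (0.900) and least like Ccl8 among the members (0.344). These sums share libraries and depth, so the values are a description.

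Between genotypes, the macrophage and monocyte classes of flfl_CD4Cre had lower ligand levels and higher Ccr2 levels than those of both other libraries of its format. This did not hold for every ligand over all cells. With all cells thinned to 3000 UMIs, Ccl8 stood at 192 CPM in flfl_CD4Cre and 82.06 CPM in CD4Cre, and Ccl12 at 102.9 and 62.22 CPM. Ccl2 was lower in flfl_CD4Cre there, at 231.4 and 245 CPM, as was Ccl7, at 96.75 and 99.36 CPM. In macrophages the ratio of flfl_CD4Cre to CD4Cre was 0.468 for Ccl2 (0.449 to 0.488), 0.470 for Ccl7 (0.446 to 0.494), 0.882 for Ccl8 (0.850 to 0.914) and 0.666 for Ccl12 (0.635 to 0.698), with 95% counting intervals. For Ccr2 it was 1.75 (1.67 to 1.84). Ccl2 and Ccl7 were lower past 2-fold, as were 0.76% of 3420 tested genes, and Ccl8 and Ccl12 were not. Ccr2 was not higher past 2-fold, and 1.84% of genes were. Against flWT_CD4Cre the ratios were lower, at 0.276, 0.306, 0.457 and 0.216 for Ccl2, Ccl7, Ccl8 and Ccl12. All of these were lower past 2-fold, where 1.73% of genes were. Ccr2 was 1.20, with 1.43% of genes higher past 2-fold. The direction against CD4Cre differed within the class. In macrophages under the inflammatory-panel minimum, Ccl2 stood at 188.6 CPM in flfl_CD4Cre and 97.65 CPM in CD4Cre, and Ccl7 at 158 and 39.84 CPM. Ccl12 was lower there, at 173.8 and 227.3 CPM. In inflammatory-panel macrophages Ccl2 and Ccl7 were lower, at 267.5 against 626.7 CPM and 158.7 against 396.8 CPM. Whether the mix of cells adds to the class ratios was not tested.

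In monocytes, against CD4Cre, the ratio was 0.304 for Ccl2, 0.241 for Ccl7 and 0.326 for Ccl12, and 2.12 for Ccr2 (2.03 to 2.21). These 3 ligands were lower past 2-fold, as were 1.57% of 3514 genes, Ccr2 was higher past it, as were 3.61%, and Ccl8, at 18.8 and 19.7 CPM, was under the 50 CPM needed to be tested. Against flWT_CD4Cre the Ccl2, Ccl7, Ccl12 and Ccr2 ratios were 0.238, 0.198, 0.259 and 2.76, where 1.48% of genes were lower and 0.771% higher past 2-fold. The order of flfl_CD4Cre against both libraries was the same in 7 of 7 processing settings for every member in both classes. For Ccl8 in monocytes, though, the flfl_CD4Cre level is read as background.

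Against flfl and WT, which have the other format, the picture depended on class. In macrophages all 4 ligands were lower and Ccr2 higher in flfl_CD4Cre than in every other library, but Ccl2 was level with WT (0.996, interval 0.957 to 1.04) and was the lowest in 4 of 7 settings. Of tested genes 15.3% were below and 28.6% above all 4 others, so that position is common. In monocytes Ccl2, Ccl7 and Ccl12 were higher in flfl_CD4Cre than in flfl and WT, with Ccl7 ratios of 6.27 (4.90 to 8.02) and 4.13 (3.22 to 5.29), the first against a level read as background. Past 2-fold were 41.2% and 42% of macrophage genes and 45.9% and 46.2% of monocyte genes in these comparisons, and the difference between formats and the difference between genotypes cannot be told apart.

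Ccr2 was also higher in flfl_CD4Cre in the T cell and neutrophil classes. T cells stood at 199, 226, 574, 25.7 and 32.0 CPM. Cells with neutrophil markers stood at 80.8, 5.77, 534, 53.3 and 72.1 CPM, from 88 cells in flfl_CD4Cre. B cells were at 8.72, 27.2, 8.65, 20.8 and 16.2 CPM, so the B cells of flfl_CD4Cre showed no such excess. Dendritic cells held 75, 83, 294, 81 and 10 Ccr2 UMIs in 294, 311, 256, 84 and 23 cells. That is more in flfl_CD4Cre than in CD4Cre and flWT_CD4Cre, from fewer cells. Plasma cells held 50 Ccr2 UMIs in 25 cells of flfl_CD4Cre and 2 in 33 cells of CD4Cre. NK cells held 14, 26, 16, 63 and 28 Ccr2 UMIs in 10, 2, 8, 21 and 11 cells, too few to compare. Monocyte markers had medians of 2.19, 2.54, 3.74, 4.04 and 1.55 UMIs per 10000 in T cells. In the neutrophil class these medians were 0, 0, 2.67, 7.41 and 29.5. Whether monocyte RNA adds to Ccr2 in these classes was not tested.

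**Figure D4:**
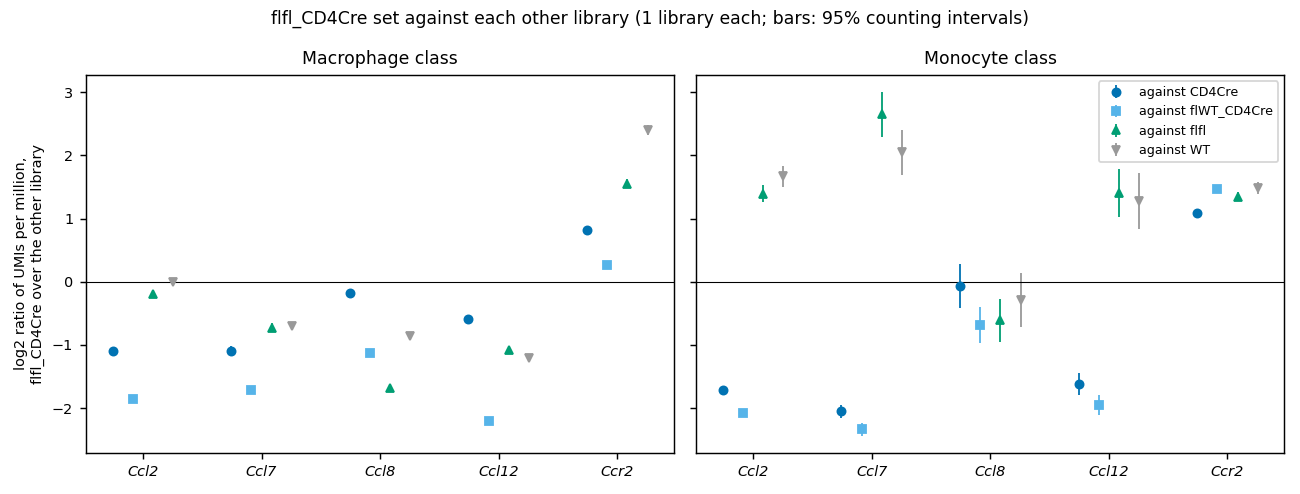
Log2 ratio of each gene between flfl_CD4Cre and each other library in the macrophage and monocyte classes, with 95% counting intervals from 1 library each. The ligands lie at or below 0 in macrophages, where Ccl2 is level with WT, and Ccr2 lies above 0 in both classes.

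Other genes of the pathway, a list of 37 that leaves out the members, was set beside them for flfl_CD4Cre against CD4Cre. In macrophages, where 0.76% of all tested genes were lower and 1.84% higher past 2-fold, 0 of 6 tested ligands, 0 of 4 receptors, 1 of 9 signalling genes and 0 of 6 regulators passed 2-fold. The medians of the 4 groups were -0.30, 0.08, 0.03 and 0.14 on the log2 scale, against 0.0034 over all tested genes. The 1 gene, chosen after its value was seen, was Rgs1, a regulator of G protein signalling, at 211 CPM in CD4Cre and 70.8 CPM in flfl_CD4Cre. The most abundant of the list were Ccl6 (2890 and 3750 CPM), Gnai2, the G protein subunit that chemokine receptors use (824 and 841 CPM), Csf1r (709 and 735 CPM) and Ccl9 (683 and 856 CPM). In monocytes, where 1.57% of all tested genes were lower past 2-fold, 3 of 6 ligands were: Ccl3 (281 and 50.3 CPM), Ccl4 (366 and 120 CPM) and Ccl24 (136 and 57.3 CPM), also named after their values were seen. The median of the 6 ligands was -1.12 on the log2 scale, against 0.06 over all tested genes. None of 5 receptors and 7 regulators passed, and 1 of 9 signalling genes did, again Rgs1 (209 and 67.6 CPM).

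Against flWT_CD4Cre more of the list was lower past 2-fold in macrophages, where 1.73% of all tested genes were. These were 3 of 6 ligands, Ccl3 (38.96 CPM in flfl_CD4Cre and 130 CPM in flWT_CD4Cre), Ccl4 (117 and 351 CPM) and Ccl24 (96.6 and 199 CPM), with 1 of 5 receptors, 1 of 8 signalling genes and 1 of 6 regulators. Another signalling gene, Itgam, an integrin subunit of myeloid cells, was higher past 2-fold (808 and 400 CPM). The median of the ligands was -0.55 on the log2 scale, against 0.05 over all tested genes. In monocytes 2 of 6 ligands, Ccl3 (50.3 and 195 CPM) and Ccl4 (120 and 428 CPM), 1 of 5 receptors, 1 of 8 signalling genes and 0 of 6 regulators were lower, with a ligand median of -0.54 against 0.02.

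The bulk libraries fell into 2 sets. The 6 macrophage markers summed to 446 to 486 CPM in Control and PDL1_Fc and to 3.60 to 6.33 CPM in Ctrl_Fc and PD1_Fc, and the 5 T cell markers to 0.0539 to 0.562 and 349 to 392 CPM. The 6 monocyte markers summed to 435 to 501 CPM in the first set and to 0.257 to 3.43 CPM in the second. In the first set 2 of the 5 T cell markers were at 0, against the label of splenic T cells. Cd3d went the other way, with 0 counts in all 6 libraries of the second set and 1 to 8 counts in each library of the first. Reads without an alignment made up 8.95% to 11.2% of Control and 80.1% to 80.4% of Ctrl_Fc. In bulk RNA, fewer cells of a type and less RNA per cell cannot be told apart.

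Ccl2 stood at 197, 182 and 170 CPM in the 3 Control libraries and at 184, 198 and 175 CPM in PDL1_Fc. Per kilobase of exon, Control held 161 ± 11.7 CPM of Ccl2 (SD, n = 3), 72.4 ± 3.94 of Ccl8, 54.3 ± 3.31 of Ccl7 and 7.30 ± 0.401 of Ccl12, an order in which no neighbours overlapped. Ccr2 had 2, 0 and 2 counts in Control and 0, 2 and 16 in PDL1_Fc, where 1 library held most of them. The ligand genes were thus well measured in this set and the receptor was not.

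Ctrl_Fc and PD1_Fc showed the reverse. Ccl2 had 2, 1 and 6 counts in Ctrl_Fc and 4, 2 and 0 in PD1_Fc. Ccl7, Ccl8 and Ccl12 had at most 1 count each in any library, with group sums of 0 and 2 for Ccl7, 1 and 2 for Ccl8, and 1 and 0 for Ccl12. Ccr2 had 30, 22 and 53 counts in Ctrl_Fc and 44, 26 and 38 in PD1_Fc, that is 8.56 ± 2.85 and 7.53 ± 1.54 CPM (SD, n = 3). Only the receptor was measured above the floor of 3 counts in every library of this set.

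**Figure D5:**
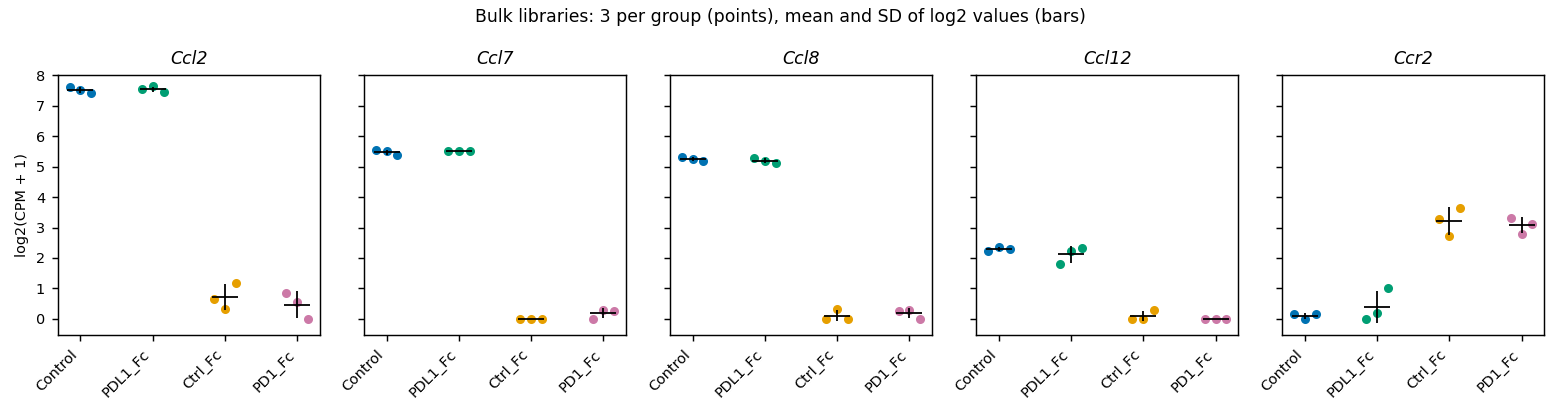
Log2(CPM + 1) of each gene in the 12 bulk libraries (points, 3 per group) with the mean and SD of the log2 values. Ccl2, Ccl7, Ccl8 and Ccl12 are high in Control and PDL1_Fc and near 0 in Ctrl_Fc and PD1_Fc, and Ccr2 is the reverse.

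No member passed an adjusted p of 0.05 between PD1_Fc and Ctrl_Fc in edgeR's quasi-likelihood test. Of 14653 genes 7 passed (0.0478%), and 771 had an unadjusted p under that value. The ligands had few counts in both groups, so this does not show that they were unchanged. Ccr2 differed by -0.13 on the log2 scale (SE 0.454, adjusted p = 1 in edgeR) and Ccl2 by -0.74 (SE 0.777, adjusted p = 0.941 in edgeR), and the groups overlapped for both. For Ccl7, Ccl8 and Ccl12 no fold is given, as both groups were at or under the floor. No member passed between PDL1_Fc and Control either, where 0 of 14653 genes passed (0%). Of these genes 528 had an unadjusted p under 0.05, and DESeq2 called 0. The log2 differences were 0.01 for Ccl2 (SE 0.0958), 0.03 for Ccl7 (SE 0.11), -0.06 for Ccl8 (SE 0.116) and -0.21 for Ccl12 (SE 0.254), each with an adjusted p of 1 in edgeR. Ccr2 differed by 2.22 (SE 1.09, adjusted p = 1 in edgeR), and without PDL1_Fc replicate 3 this became -0.17.

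Across the 2 sets, Ctrl_Fc against Control, all 5 members passed, as did 91.8% of genes, so the count says nothing particular to them. Ccl2 was 245-fold higher in Control (129 to 536), Ccl8 446-fold (80.0 to 17600) from 1 count in Ctrl_Fc, and Ccl12 47.1-fold (8.46 to 1861), also from 1 count. Ccl7 had 0 counts in Ctrl_Fc. Its fold was at least 142 by the same Poisson limits, and at least 175 from the floor of 3 counts over the group. The edgeR log2 differences, which use TMM, are on another scale. They were -8.64 for Ccl2 (SE 0.215), -9.27 for Ccl8 (SE 0.359) and -6.03 for Ccl12 (SE 0.662). On that scale Ccr2 was higher in Ctrl_Fc by 5.94 (SE 0.745, adjusted p = 4.89e-07 in edgeR). Treatment and set cannot be told apart in this comparison.

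Of the pathway list, 0 genes passed in either comparison within a set, from 8 of 9 ligands, 6 of 8 receptors, 10 of 10 signalling genes and 10 of 10 regulators tested. The smallest p in PDL1_Fc against Control was that of Cx3cr1, a receptor of monocytes, at 4.34 ± 0.606 CPM against 8.87 ± 3.64 CPM (SD, n = 3; log2 difference -1.04, adjusted p = 0.296 in edgeR). In PD1_Fc against Ctrl_Fc it was that of Itgb1, an integrin subunit, at 251 ± 15.2 CPM against 226 ± 37.1 CPM (SD, n = 3; adjusted p = 0.931 in edgeR). Nothing in the sources says that the libraries of a group come from separate mice or cultures, so these p-values may measure technical spread.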

How the data were processed

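The authors deposited raw read counts per gene for the 12 bulk libraries and matrices of UMI counts for the 5 single-cell libraries. Per the submitters' processing notes, bcl2fastq, Cell Ranger, STAR, HTSeq and bedtools were used on mm10, and the file headers of 3 matrices name version 3.1.0. Their roles and other versions are not given in the sources used here. Rows that name no gene, including reads without an alignment, held 42.6% to 88.2% of the bulk tallies and were left out. Bulk libraries held 3473884 to 18557390 gene counts. The members and lists were chosen with earlier results of these data known. Some list genes past 2-fold between single-cell libraries were named after their values were seen. The other named genes are the members, list genes and up to 5 genes most like a member. Those list genes, up to 4 per comparison, have the smallest p in bulk or the highest macrophage level in single cells. Some items that this rule or the marker panels hold are not reported here.

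For bulk, edgeR 4.0.16 under R 4.3.3 took all 12 libraries together, with TMM, the default filter and quasi-likelihood tests, and p-values were adjusted by Benjamini-Hochberg over 14653 genes. Alternatives were DESeq2 1.42.0, edgeR with its size factors, unfiltered genes, a fit of just the 6 libraries at issue, the replicate block, each library left out, and groups without or by the conflicting treatment field. In Python 3.11.15, cells under 200 genes or over 10% mitochondrial UMIs were dropped. A cell took a class when at least 2 markers and a set minimum of marker UMIs per 10000 passed, at 50 for macrophages and 10 for monocytes. Cells with markers of several lineages were set apart, and no doublet caller was run. Single-cell alternatives were a doubled marker minimum, mixed cells kept, 20% mitochondrial UMIs, cells thinned to 3000 UMIs, and levels without mitochondrial and ribosomal genes. Keeping the shared barcodes was added after the data were seen. A gene was tested for a 2-fold difference at 50 CPM or more in either group. Both calling steps were also run on simulated data with known changes, and the outcomes are not given here.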

Additional observations from a re-analysis of the deposited data

Results flagged for a closer look

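Against flfl and WT, the flfl_CD4Cre library lay below in macrophages and above in monocytes for part of the ligands. The monocyte log2 ratio minus the macrophage log2 ratio was 1.58 for Ccl2 against flfl, 3.37 and 2.74 for Ccl7 against flfl and WT, and 2.48 and 2.49 for Ccl12 against flfl and WT. The 2 classes moved in opposite directions, each with a 95% counting interval of the ratio that does not reach 1, but with 1 library per genotype the difference was not tested. The matrix format differs in each of these comparisons. The Ccl7 level of flfl monocytes is read as background, and the Ccl12 levels of flfl and WT monocytes are close to the B cell share, so the sizes of these differences rest on low denominators.

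The shallow copies of shared barcodes, which entered no comparison, held Ccl2 UMIs: 211 in CD4Cre, 297 in flWT_CD4Cre and 163 in flfl_CD4Cre. Over the 1000 most variable genes, a shallow copy correlated with its deep partner at a median r of 0.594 (CD4Cre and flWT_CD4Cre), 0.583 (CD4Cre and flfl_CD4Cre) and 0.607 (flWT_CD4Cre and flfl_CD4Cre), against 0.394, 0.405 and 0.386 for another barcode.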

How the results depend on the processing

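The place of flfl_CD4Cre relative to CD4Cre and flWT_CD4Cre held under the 7 single-cell settings for every member in both classes. For Ccl8 in monocytes, though, the flfl_CD4Cre level is read as background. Sizes moved. With a doubled marker minimum, the macrophage log2 ratio of flfl_CD4Cre to CD4Cre became -0.90 for Ccl2, -0.40 for Ccl8, -0.49 for Ccl12 and 1.32 for Ccr2, and the monocyte ratio -1.81 for Ccl7, -0.69 for Ccl8 and 1.47 for Ccr2. With thinned cells it became -0.85 for Ccl7, -0.11 for Ccl8 and -0.36 for Ccl12 in macrophages, and -1.56 for Ccl2 and 1.18 for Ccr2 in monocytes. Thinning took the median share of macrophages with a UMI to 27.7% for Ccl2, 20.2% for Ccl7, 37.3% for Ccl8, 36.7% for Ccl12 and 27.8% for Ccr2, from 51.8%, 38.9%, 55.1%, 56.5% and 38.9%. With shared barcodes kept, that of Ccl12 was 45.8%.

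In PD1_Fc against Ctrl_Fc, 7 genes passed, 21 with DESeq2, 27 with only the libraries compared, 2 without the libraries whose treatment field disagrees, 0 with groups by that field, and 0 to 8 with 1 library left out. In PDL1_Fc against Control, 0 passed, 1 without a filter and 0 to 1 with 1 library left out. No member passed within a set under any alternative. Grouping by the treatment field mixes the sets and took Ccl2 to 7.97. With 1 library left out, PD1_Fc against Ctrl_Fc ran from -1.71 to 0.165 for Ccl2 and from -0.372 to 0.218 for Ccr2, including 0.0424 without PD1_Fc replicate 2. PDL1_Fc against Control ran from -0.0427 to 0.0426 for Ccl2, including -0.0353, -0.0401 and -0.042, from -0.0217 to 0.0438 for Ccl7, including -0.0159 and -0.00934, and from -0.171 to 2.74 for Ccr2. Ctrl_Fc against Control ran from 12476 to 14090 genes. The cause of these moves was not tested. The replicate numbers do not pair the libraries, as same-numbered libraries correlated at -0.114 to 0.0497, and with the replicate block 7, 0 and 13418 genes passed in the 3 comparisons, with no change in any member's call. Low counts limit the ligands in Ctrl_Fc and PD1_Fc and Ccr2 in the other set.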
